A study of Mus musculus with 2 samples.

Results

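The nuclear genes of oxidative phosphorylation were selected from a table of GRO-seq gene activity in mouse C2C12 myoblasts by their gene symbols. A RefSeq entry was taken where its symbol begins with Ndufa, Ndufb, Ndufc, Ndufs, Ndufv, Uqcr, Cox4 to Cox8, or Atp5 and a letter, or is Sdha, Sdhb, Sdhc or Sdhd. This gave 90 entries of 83 gene symbols among 24165 entries of 20128 symbols. C2C12, a mouse cell line, consists of dividing muscle precursors that form multinucleate myotubes when serum is withdrawn. For GRO-seq, isolated nuclei are allowed to resume transcription with a bromouridine label and the nascent RNA is sequenced, so that a read marks an engaged RNA polymerase. The 2 replicate libraries came from untreated cells grown to 80% confluency on 10 cm plates in medium with 10% fetal bovine serum, with 4 plates for each isolation of nuclei. The authors pooled the libraries and deposited 1 value per entry, so the table gives neither a value for each library nor its spread, and no test between libraries was made here. The unit, RPKmM, gives reads on the sense strand of the gene body divided by its mappable length in kilobases and by sequencing depth. An entry carries the word Inactive where its read density was not significantly above the background of gene deserts, so an inactive entry may still hold reads. The read depth of the libraries is not in the table, and at equal activity a short gene body rests on fewer reads than a long gene body.

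The respiratory chain passes electrons from NADH and succinate to oxygen and pumps protons across the inner mitochondrial membrane. Complex I (NADH dehydrogenase) and complex II (succinate dehydrogenase) feed electrons to ubiquinone, complex III (cytochrome bc1) passes them to cytochrome c, and complex IV (cytochrome c oxidase) reduces oxygen. Complex V (ATP synthase) uses the proton gradient to make ATP, and muscle fibres rely on this pathway for sustained contraction. All complexes except complex II also contain subunits encoded by mitochondrial DNA, which are outside the gene set described here. Several subunits of complex IV have paralogues whose use is restricted to heart and skeletal muscle, lung or testis.

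Markers were examined by their levels, since 70.2% of all entries in the table were active. All 8 entries of a myoblast marker list were active, from 0.55 RPKmM for Pax7 to 146 for Vim. Among them, Msc was at 0.82, Myod1 at 2.39 and Des at 72.5. Of a list of differentiation markers, 14 of 14 entries were also active, from 0.01 for Myh2 to 6.85 for Acta1, with a median of 0.375. Of these, 4 lay above the median of all active entries (0.87), namely Acta1, Myh3 at 5.28, Myog at 2.39 and Myh1 at 1.56. Myog was thus listed at the same value as Myod1. Markers of other cell types were low or inactive. Of 6 fibroblast marker entries 4 were active, at 0.38 or below. The adipocyte list had 0 active entries of 5. The endothelial and the immune list had 1 active entry of 3 each, at 0.01. These markers are single pooled values, and their part in the activities below was not tested.

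Nearly the whole set was transcribed. Of the 90 entries, 88 were active (97.8%, exact Clopper-Pearson 95% interval 92.2 to 99.7), against 70.2% of all entries in the table. The interval treats entries as independent draws and does not describe the variation between libraries. The inactive entries were Cox4i2 and Cox7b2, which encode tissue-restricted isoforms of complex IV subunits. The median activity of the 88 active entries was 1.49 RPKmM, with quartiles of 0.728 and 3.63, whereas all 16957 active entries had a median of 0.87 and quartiles of 0.22 and 1.99. The ratio of the medians was 1.71.

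The genes were concentrated in the middle and upper range of activity and were rare at the low end. An activity above the median of all active entries was found for 61 of the 88 entries (69.3%), against 49.7% of all active entries. An activity of at least 1 RPKmM was listed for 58 (65.9%), against 46% of all active entries. Above the upper quartile of all active entries lay 35, between the median and that quartile 26, and from the lower quartile to the median also 26. Only Ndufa4l2 lay below the lower quartile, and it was also the only entry below 0.1 RPKmM (1.14%), a range that held 18.5% of all active entries. At the other end, 3 entries (Atp5b, Atp5a1 and Atp5g3) reached 10 RPKmM (3.41%), a share near the 2.89% of all active entries. The set thus differed from the background more at the low end of the range than at the top.

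**Figure D1:**
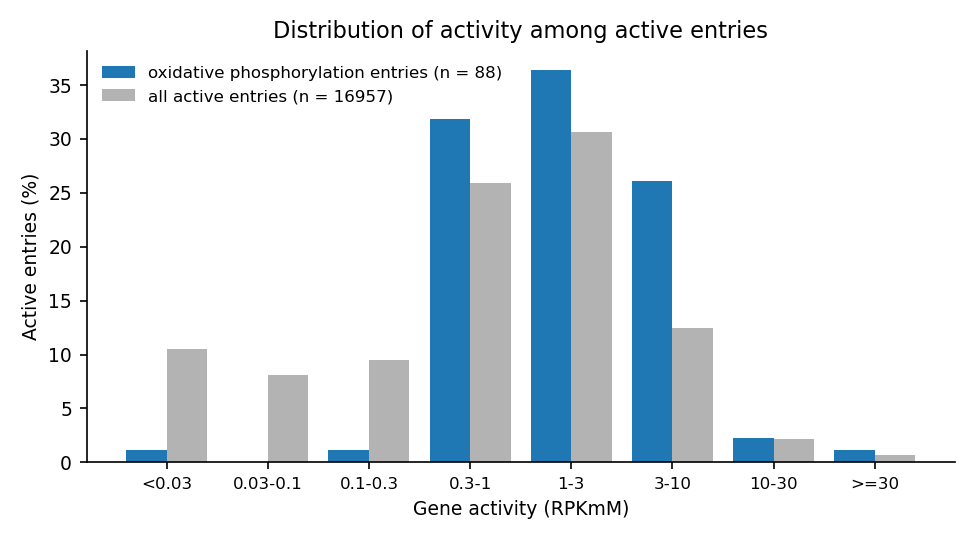
Share of active entries (%) in bins of gene activity (RPKmM), for the 88 active oxidative phosphorylation entries (blue) and all 16957 active entries (grey). The bin from 3 to 10 holds 26.1% of the blue and 12.5% of the grey entries, whereas the bins below 0.1 hold 1.14% and 18.5%.

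Complex I, the largest complex of the chain, had 37 entries of 36 symbols, all of them active, with a median of 1.12 RPKmM and a range from 0.26 to 8.3. Its catalytic core carries the flavin and the iron-sulphur clusters that take electrons from NADH to ubiquinone, and all 7 nuclear core genes lay above the median of all active entries. The flavin-binding subunit Ndufv1 had 3.84 and its partner Ndufv2 4.38. The largest core subunit, Ndufs1, had 2.94. Ndufs3 had 2.18, and Ndufs7 and Ndufs8, which bind the last clusters of the path to ubiquinone, had 1.83 and 1.85. These values fall into a narrow range, as the highest of the core genes was 2.39 times the lowest.

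The accessory subunits surround this core and were more dispersed. Their 30 entries had a median of 1.01 RPKmM, so the median of the core was 2.93 times higher, and 19 of the 30 lay above the median of all active entries. The highest was Ndufa5, at 8.3 in both of its entries, and the lowest was Ndufs5, at 0.26, a ratio of 31.9 between genes of the same complex. Ndufs4, a frequently mutated subunit in mitochondrial disease, had 1.01 although its gene spans 100300 bp. The 10 Ndufb genes, whose products lie in the membrane arm, were less dispersed, from 0.6 for Ndufb7 to 2.57 for Ndufb9. The median gene span was 10095 bp for core genes and 7798 bp for accessory genes, by the RefSeq gene lengths.

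**Figure D2:**
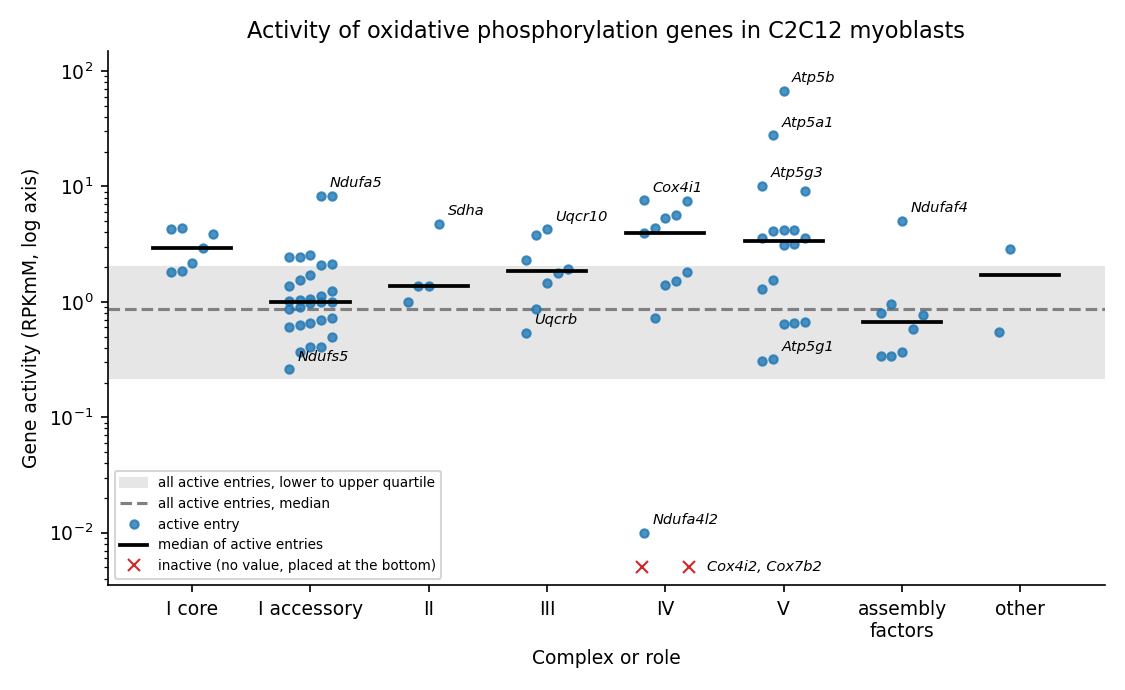
Gene activity (RPKmM, log axis) of each entry by complex or role, with points for active entries, black lines for their medians, crosses for the inactive entries, and the median and quartiles of all active entries as a dashed line and grey band. The 7 core genes of complex I lie at or above 1.83, while accessory genes extend from 0.26 to 8.3, and Atp5b at 67.7 and Ndufa4l2 at 0.01 are the extremes.

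Complex II, which is also an enzyme of the citric acid cycle, was represented by its 4 subunits. The flavoprotein gene Sdha had 4.76 RPKmM, the iron-sulphur gene Sdhb 1.38, and the membrane anchor genes Sdhc and Sdhd 1.37 and 1.00. Sdha was thus 3.45 times higher than Sdhb, and the other 3 genes differed little in value. Sdha lies at chr13:74459702-74487728 on the minus strand of mm9. Its promoter is shown because it held more matches to the NRF1 motif than any other promoter printed here. The window of Ndufb4, which is not printed, also held 3. NRF1 is a transcription factor known to regulate nuclear genes of the respiratory chain. The sequence runs from 250 bases before to 50 bases after the RefSeq gene start, in GRCm38.p6 at chr13:74350191-74350490 on the minus strand, 5′ to 3′ in the direction of transcription. Capitals mark matches on either strand to the motifs of NRF1, ETS (CCGGAAGT), YY1 (AANATGGCG), ERR (TNAAGGTCA), the TATA box with the word TATAAA, and a Mef2-like core. All 3 marked words are NRF1 matches.
Sdha: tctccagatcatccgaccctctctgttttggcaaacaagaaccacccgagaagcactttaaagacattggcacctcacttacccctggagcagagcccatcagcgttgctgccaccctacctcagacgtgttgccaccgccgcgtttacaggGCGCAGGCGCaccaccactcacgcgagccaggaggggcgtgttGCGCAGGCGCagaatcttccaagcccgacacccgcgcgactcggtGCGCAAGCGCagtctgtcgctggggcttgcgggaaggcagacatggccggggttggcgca

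Complex III had 8 active entries, with a median of 1.85 RPKmM. Among these entries, which do not include Cyc1, the small subunit Uqcr10 was highest, at 4.24, followed by the core protein Uqcrc1 at 3.82 and the hinge protein Uqcrh at 2.3. The Rieske iron-sulphur protein Uqcrfs1 had 1.92 and the second core protein Uqcrc2 had 1.77. Uqcrb was lowest, at 0.54, which is 7.85 times below Uqcr10. Of the 8 genes, 6 lay above the median of all active entries.

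In complex IV, 11 of 13 entries were active, with a median of 3.96 RPKmM. The most active gene was Cox4i1, which encodes the general form of the largest nuclear subunit, at 7.59 and 7.46 in its entries. Ndufa4, named for complex I but known as a subunit of complex IV, had 5.61, and Cox6c had 5.28. Cox7b and Cox6b1 had 4.37 and 3.96. The remaining general subunits with an entry were lower, with Cox6a1 at 1.81, Cox8a at 1.52, Cox5a at 1.39 and Cox7a2 at 0.72. Thus the general subunits with an entry covered a range of 10.5 times between Cox4i1 and Cox7a2. Cox5b and Cox7c had no entry.

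Of the 7 tissue-restricted isoforms of complex IV considered, Cox4i2 and Cox7b2 were measured, and both were inactive while their general paralogues were transcribed. Cox4i2, an isoform known from lung and regulated by oxygen, was inactive, whereas Cox4i1 was above 95.8% of all active entries. The testis isoform Cox7b2 was inactive, whereas Cox7b was at 4.37. Ndufa4l2, a paralogue known to be induced by hypoxia, was listed as active at 0.01 RPKmM, the rounding step of the table, against 5.61 for Ndufa4. The difference was −8.13 on the scale of log2(activity + 0.01), but its size depends on the pseudocount, as it was −5.70 with 0.1 and −8.99 with 0.001. Cox7a2l, whose product joins complexes III and IV into supercomplexes, was the exception among these relatives, at 2.89 against 0.72 for Cox7a2. The difference of 1.99 on the same log2 scale has no replicate check.

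The heart and skeletal muscle isoforms Cox6a2, Cox7a1 and Cox8b were not analysed here, so the comparison with their general paralogues Cox6a1, Cox7a2 and Cox8a could not be made. Their gene models span 931, 1858 and 1504 bp in the GENCODE annotation of mm9, and the authors kept genes of 2 kb or longer. The testis isoforms Cox6b2 and Cox8c, of 1301 and 1229 bp, were likewise not analysed here. Of 91 protein-coding genes of that annotation whose names fit the pattern, 11 had no entry under that name. Of these, 9 span less than 2 kb, among them the general subunit gene Cox5b (1899 bp). The longer ones were Cox7c, of 2089 bp but 1998 bp in RefSeq, and Cox4nb, of 14199 bp. These genes were picked by name, as Atp5l-ps1 was, so not each need encode a subunit. By RefSeq lengths, the shortest active gene of the set spans 2256 bp.

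**Figure D3:**
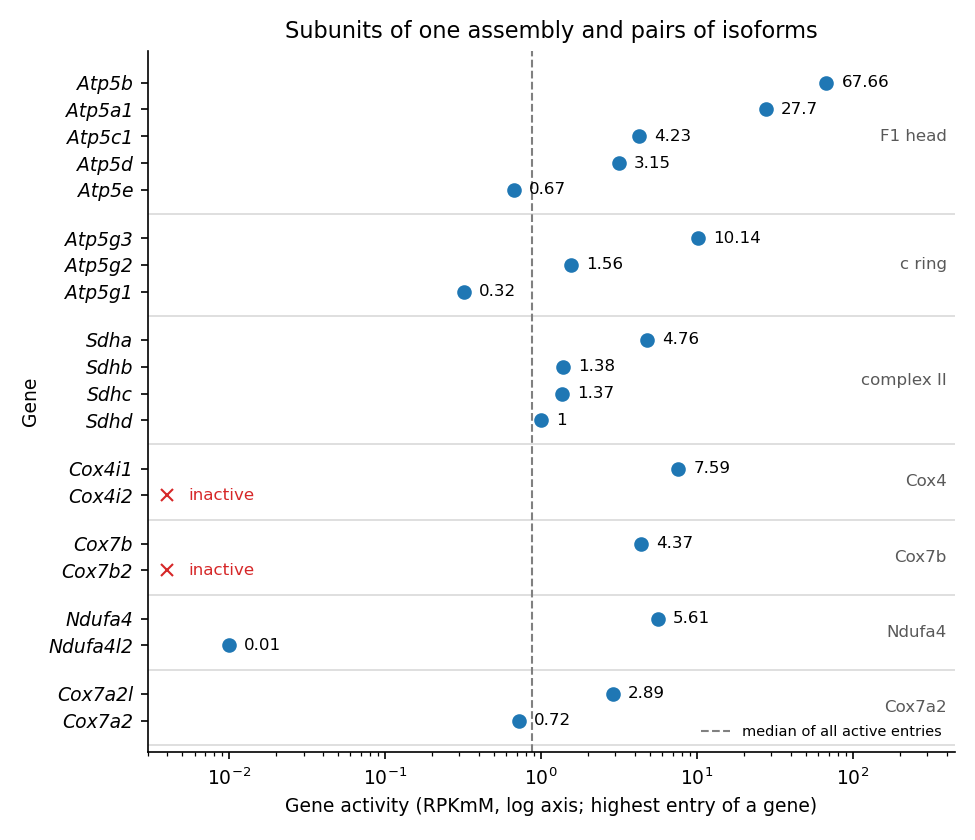
Gene activity (RPKmM, log axis) of the highest entry of each gene, grouped as the F1 head and c ring of ATP synthase, complex II, and related isoforms, with crosses for inactive genes and a dashed line at the median of all active entries (0.87). Cox4i2 and Cox7b2 are inactive and Ndufa4l2 is at 0.01, whereas Cox4i1, Cox7b and Ndufa4 lie between 4.37 and 7.59.

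The promoters of Cox7b and Cox7b2 are shown as those of an active and an inactive paralogue. In GRCm38.p6 the window of Cox7b is chrX:106015450-106015749 on the plus strand and that of Cox7b2 is chr5:71548156-71548455 on the minus strand. The Cox7b window held no marked motif, with 43.3% G and C and 5 CpG dinucleotides. The Cox7b2 window, with 48.7% G and C and 10 CpG, held a TATA word far upstream of the start, read on the reverse strand. Neither window held an NRF1, ETS, YY1 or ERR match, which says only that these letters are not in these windows.
Cox7b: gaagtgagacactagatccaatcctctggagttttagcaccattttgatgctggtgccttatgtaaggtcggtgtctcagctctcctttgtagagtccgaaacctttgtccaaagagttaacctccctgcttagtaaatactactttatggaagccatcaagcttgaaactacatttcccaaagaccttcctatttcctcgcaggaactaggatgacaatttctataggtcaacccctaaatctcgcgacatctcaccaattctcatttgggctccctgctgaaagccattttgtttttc
Cox7b2: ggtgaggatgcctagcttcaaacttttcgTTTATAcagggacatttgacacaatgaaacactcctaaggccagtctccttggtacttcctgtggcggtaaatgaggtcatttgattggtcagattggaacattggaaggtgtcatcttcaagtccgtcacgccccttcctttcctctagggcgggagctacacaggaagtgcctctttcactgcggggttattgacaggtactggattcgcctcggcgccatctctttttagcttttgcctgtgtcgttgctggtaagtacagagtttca

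Complex V had 18 active entries of 14 symbols, with a median of 3.36 RPKmM, and it spanned the widest range among active subunits other than Ndufa4l2. The catalytic head F1 contains the subunits alpha and beta in several copies each, and gamma, delta and epsilon as single copies. Beta (Atp5b) was at 67.7, above 99.7% of all active entries, and alpha (Atp5a1) was at 27.7, above 99.2%. The central stalk subunits gamma (Atp5c1), delta (Atp5d) and epsilon (Atp5e) were at 4.23, 3.15 and 0.67. Atp5b was therefore 2.44 times Atp5a1, 16.0 times Atp5c1 and 101 times Atp5e. When the highest entries of all 81 active symbols were summed, Atp5b and Atp5a1 held 35.9% of the sum. The order of complexes IV and V by median depended on how entries were counted, as with the highest entry per symbol the medians were 2.89 and 3.13.

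Atp5b lies at chr10:127520329-127527447 on the plus strand of mm9. Snord59 and a further snoRNA gene lie within it on the same strand, from 127521199 to 127521272 and from 127522345 to 127522416. The longest gene model of Baz2a, itself at 2.88 RPKmM, also runs across it in the same direction. By these models Snord59 lies before the counted gene body, which begins 1 kb after the start, and the further snoRNA gene lies within it. Reads of a gene and of another gene on the same strand in the counted part cannot be told apart. The part of the further snoRNA gene and of Baz2a in the value of Atp5b was not tested. Atp5c1 also contains a snoRNA gene on its strand. Elsewhere in the set, same-strand overlaps with a listed protein-coding gene involved Ndufb2 with Adck2 (0.97 and 0.69) and Ndufb8 with Sec31b (1.03 and 0.01). These overlaps are of GENCODE models, whereas the RefSeq spans of Ndufb2 and Ndufb8 are shorter, at 7279 and 6872 bp. The GENCODE model of Atp5o (0.64) also overlaps Donson (1.3) and Cryzl1 (1.69), but it spans 247290 bp against 6408 bp in RefSeq, so these overlaps may not apply to the measured entry.

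The c ring is the rotor of ATP synthase, and its mature subunit is encoded identically by Atp5g1, Atp5g2 and Atp5g3, which differ in their import sequences. These genes were transcribed at different levels. Atp5g3 was at 10.1 RPKmM, Atp5g2 at 1.56, and Atp5g1 at 0.32 and 0.31 in its entries. Atp5g3 was thus 6.5 times Atp5g2 and 31.7 times Atp5g1, and Atp5g1 was the least active gene of complex V. Among the other subunits, Atp5l was at 9.18, the peripheral stalk genes Atp5j at 3.56 to 4.21 and Atp5f1 at 3.1, and Atp5h and Atp5o at 0.66 and 0.64.

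The promoters of Atp5b and of the c ring genes are shown because Atp5b was the most active gene of the set and the c ring genes differed in activity although they encode the same mature subunit. Their windows in GRCm38.p6 are chr10:128083057-128083356 on the plus strand for Atp5b, chr2:73911277-73911576 on the minus strand for Atp5g3, chr15:102670998-102671297 on the minus strand for Atp5g2 and chr11:96075582-96075881 on the minus strand for Atp5g1. The Atp5b window held a YY1 match, read on the reverse strand, just after the gene start. The Atp5g3 window held an ERR and an NRF1 match, that of Atp5g2 an NRF1 match, and that of Atp5g1 none of the marked motifs. Thus the least active c ring gene had no match while both others did, which is a description of 3 windows.
Atp5b: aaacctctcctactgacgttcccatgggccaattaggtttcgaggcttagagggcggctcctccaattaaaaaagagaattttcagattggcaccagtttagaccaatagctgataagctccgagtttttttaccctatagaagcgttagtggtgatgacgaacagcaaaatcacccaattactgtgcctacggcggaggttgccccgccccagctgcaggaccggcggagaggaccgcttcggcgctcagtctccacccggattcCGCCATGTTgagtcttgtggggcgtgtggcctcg
Atp5g3: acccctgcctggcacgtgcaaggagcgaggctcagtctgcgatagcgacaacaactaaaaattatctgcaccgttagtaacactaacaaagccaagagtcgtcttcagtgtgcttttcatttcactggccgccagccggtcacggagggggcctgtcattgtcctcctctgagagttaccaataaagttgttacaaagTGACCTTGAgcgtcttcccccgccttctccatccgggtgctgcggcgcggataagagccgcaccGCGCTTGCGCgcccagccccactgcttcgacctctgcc
Atp5g2: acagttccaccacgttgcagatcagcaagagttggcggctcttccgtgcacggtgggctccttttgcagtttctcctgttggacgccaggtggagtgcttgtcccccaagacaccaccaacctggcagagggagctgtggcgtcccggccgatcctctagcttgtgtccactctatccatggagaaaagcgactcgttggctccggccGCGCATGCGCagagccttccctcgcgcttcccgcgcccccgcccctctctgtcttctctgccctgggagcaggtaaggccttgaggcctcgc
Atp5g1: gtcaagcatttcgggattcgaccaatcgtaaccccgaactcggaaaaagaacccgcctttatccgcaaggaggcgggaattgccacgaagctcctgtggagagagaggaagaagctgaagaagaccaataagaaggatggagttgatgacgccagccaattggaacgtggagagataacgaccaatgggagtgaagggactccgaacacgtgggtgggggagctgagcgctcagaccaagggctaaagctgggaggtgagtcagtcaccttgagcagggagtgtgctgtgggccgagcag

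Assembly factors that share the Nduf or Atp5 names were less active than most subunits. Their 8 entries had a median of 0.675 RPKmM, below that of all active entries, and 2 of the 8 lay above it. Ndufaf4, an assembly factor of complex I, was at 5.06, the others between 0.34 and 0.95. Ndufaf5 had 0.95, Ndufaf2 0.80, Ndufaf6 0.77, Ndufaf1 0.58 and Ndufaf7 0.37. Atp5sl, which also serves the assembly of complex I, had 0.34 in both entries. Atp5s, a coupling factor of ATP synthase, was at 0.55. Leaving out these factors and Cox7a2l, the 78 active subunit entries had a median of 1.64.

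Transcript entries of the same gene gave like values. Of the 5 symbols with several entries, Atp5j had the largest ratio of its highest to its lowest entry, at 1.18, and no symbol had both active and inactive entries. The 3 genes on the X chromosome (Ndufa1, Ndufb11 and Cox7b) were all active. Across the 81 active genes the rank correlation of activity with gene span was 0.0633, a value across genes that are not replicates. The spans are gene lengths of RefSeq GRCm38.p6 and can differ from the length that was counted. Cox7a2, for example, spans 16182 bp there and 4613 bp in the GENCODE annotation of mm9. The median span of these genes was 7798 bp, against 23899 bp for all active genes with a RefSeq length. The 19 active genes under 5 kb had a median activity of 1.00 and the 62 longer genes 1.48. A division at 10 kb gave the opposite order, with 1.52 for 53 shorter and 1.38 for 28 longer genes.

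Many of the genes start head to head with another gene. In the mm9 annotation, 23 of 80 genes with a gene model (28.8%) had the start of a protein-coding gene on the opposite strand within 1000 bp upstream, allowing an overlap of 100 bp. The share was 8.42% over all 16698 such genes in the table and 11.0% over the 12063 that were active. In 16 pairs both genes were active, and the oxidative phosphorylation gene was the more active in 12. Their median was 2.16 RPKmM, against 1.04 for the neighbours. Large differences in either direction occurred across a short distance. Ndufs1, at 2.94, starts 3 bp from Eef1b2, a translation elongation factor gene at 16.3. Ndufa5, at 8.3, has as its neighbour the inactive Asb15 at 131 bp, and Uqcrq, at 0.87, the inactive oocyte gene Gdf9 at 192 bp. Sdha and its neighbour Ccdc127, at 29 bp, were closer in activity, at 4.76 and 3.14. Since reads were counted on the sense strand from 1 kb after the start, the genes of such a pair do not share reads in the gene body.

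**Figure D4:**
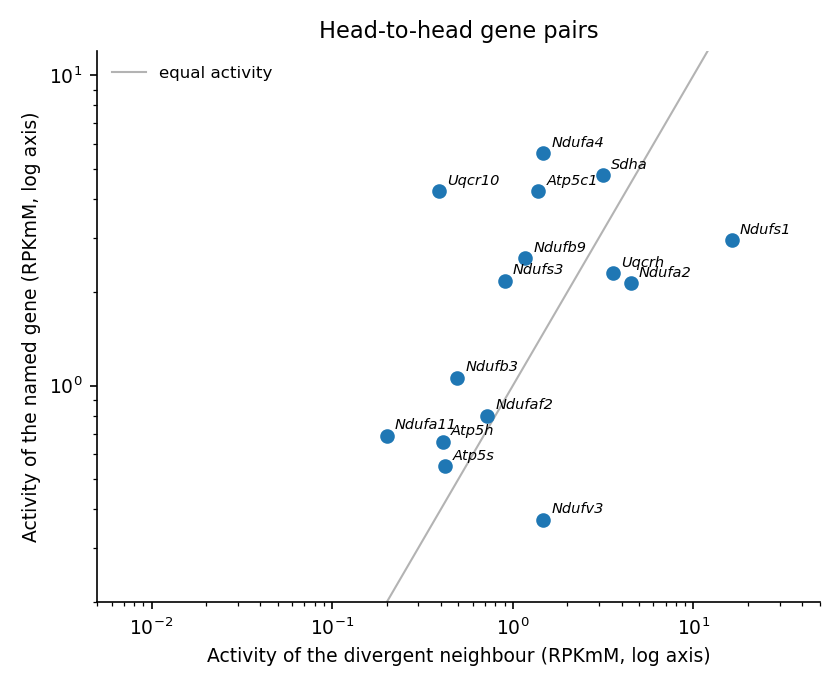
Activity (RPKmM, log axes) of 15 oxidative phosphorylation genes, 1 pair being left out, against that of the neighbour starting head to head on the opposite strand, with a grey line at equal activity. 11 of the 15 points lie above the line, and Ndufs1, beside Eef1b2 at 16.3, lies farthest to the right.

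The RefSeq promoter table held 75 promoter windows of 69 of the 83 genes. Windows of the same gene may overlap and each was counted, as with both windows of Ndufa5, which each held an NRF1 match. Motif shares are given beside those of 13880 windows of genes active in the deposited table and of all 32851 windows. The NRF1 motif occurred in 19 of the 75 windows (25.3%), against 9.15% of windows of active genes and 4.6% of all windows. YY1, a factor with sites near many mitochondrial gene starts, had a match in 12 (16.0%), against 4.51% and 2.38%. The ERR motif, bound by oestrogen-related receptors, occurred in 3 (4%), against 0.807% and 1.28%. The ETS word, of the kind bound by GABPA, occurred in 5 (6.67%), below the 7.33% of active genes and above the 3.89% of all windows. The Sp word (GGGCGG) was found in 44.0%, below the 60.0% of active genes and above the 35.7% of all windows. The E-box (CANNTG), bound by MyoD and many other factors, was found in 69.3%, between the 64.6% of active genes and the 72.3% of all windows. The Mef2-like core was found in 1.33%, against 3.21% and 3.69%. TATA words were found in 9.33%, between 7.46% and 13.6%. The windows had a median of 58.3% G and C and 20 CpG dinucleotides, against 60.3% and 19 for active genes and 52.7% and 7 for all windows. These shares are descriptions of letters in fixed windows and were not tested.

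**Figure D5:**
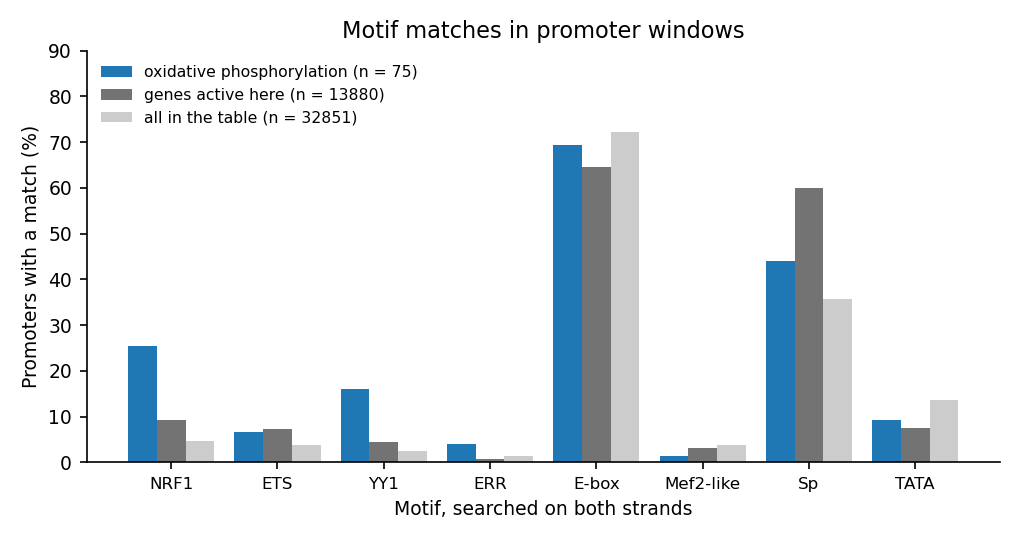
Share of promoter windows (%) with at least 1 match to each motif on either strand, for oxidative phosphorylation genes (75 windows, blue), genes active in the table (13880, dark grey) and all genes (32851, light grey). NRF1 (25.3%) and YY1 (16.0%) lie above both backgrounds, and Sp (44.0%) lies between them.

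Genes around the respiratory chain were compared by lists. Enzymes of the citric acid cycle and pyruvate dehydrogenase, which supply its electrons, were active in 18 of 18 entries, with a median of 2.04 RPKmM, and 16 lay above the median of all active entries. The highest was Dld, at 11.0, and citrate synthase (Cs) was at 8.41. Assembly genes outside the name pattern were active in 40 of 40 entries, with a median of 0.935. Among these, Cox14, an assembly factor of complex IV, was at 20.1, and Lyrm7, an assembly factor of complex III, at 0.03. Of 32 entries of regulators of mitochondrial gene expression, 29 were active, with a median of 1.13. Of these 29, 21 lay above the median of all active entries. Esrra was at 4.22, Tfam, which binds mitochondrial DNA, at 3.67, Pprc1 at 2.69, Yy1 at 2.62 and Gabpa at 0.71, and the Nrf1 entries lay between 1.43 and 2.02. By contrast, Ppargc1a, the coactivator of mitochondrial biogenesis in muscle, was at 0.04 and 0.03, while its relative Ppargc1b was at 1.33. The Esrrg entries were at 0.01 and 0, and Esrrb and Perm1 were inactive. Ppargc1a and Esrrg were thus low among the active regulators, and the relation of any regulator to the subunit genes was not tested.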

How the data were processed

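The table of gene activity analysed here derives from 2 GRO-seq libraries of untreated C2C12 myoblasts. The authors aligned reads with Bowtie2 (mm9), repeated this after trimming for those that failed, and kept uniquely mapped reads outside rRNA and tRNA repeats. They merged both libraries and deposited activity as an RPKM value over mappable bases (RPKmM), rounded to 2 decimals. The submitters' processing notes also name CASAVA 1.8. Gene bodies began 1 kb after the TSS, and genes of 2 kb or longer on chromosomes 1 to 19 and X were kept. The word Inactive fills 7208 cells, so the range of the unit could not be tested by code. Pooling hides the variation between libraries, unique mapping can leave bases with close copies such as processed pseudogenes uncounted, and depth is not in the table.

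Members were found by symbol, with no filter on low values, and each result is a count, median, ratio or rank correlation without a test. Members, lists and isoform pairs were chosen with earlier results of these data known. The genes named are isoform relatives, the 3 most active, the least active and every inactive gene of each complex, complex II, the core of complex I, and any gene listed at 0 or with entries that differ by 3 times or in state, of which there were none. The F1 head, c ring, further subunits and head-to-head neighbours were named in addition, some after their values were seen, as were the promoters printed. Names and gene spans came from RefSeq (GRCm38.p6), matched by identifier for 90 of 90 entries, and mm9 positions from GENCODE vM1 (NCBIM37, the same build as mm9). Promoter windows are of RefSeq GRCm38.p6. Alternatives were 1 entry per symbol, subunits only, other pseudocounts, geometric means and span minimums of 5 or 10 kb. Calculations were tested on simulated data and were made with pandas 2.3.3, numpy 2.4.6 and scipy 1.17.1 under Python 3.11.15, and figures with matplotlib 3.10.9. Some genes are not reported here by name.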

Additional observations from a re-analysis of the deposited data

How the results depend on the processing

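Of 45 alternative values, 42 stayed within 1.5 times of the reported value, with log2 differences compared as unlogged folds and the rank correlation held to within 0.1. The median of active entries ranged from 1.38 to 1.67 RPKmM. The exceptions were the centre of complex IV, 1.95 as a geometric mean with a pseudocount of 0.01, and the difference between Ndufa4l2 and Ndufa4, −5.70 with a pseudocount of 0.1 and −8.99 with 0.001; both involve Ndufa4l2 at 0.01, and the cause for complex IV was not tested. Without Atp5b and Atp5a1, an alternative chosen after seeing the data, the median was 1.42. No paired analysis was possible because the libraries form 1 group and were pooled. Values near 0.01 are limited by rounding, and no difference between genes has a replicate check.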

Other observations

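Genes that work beside the complexes but fall outside the symbol pattern were examined in lists chosen after seeing the data. Cyc1, the cytochrome c1 subunit of complex III, was at 7.99 RPKmM, above every listed Uqcr gene. The small ATP synthase subunits Usmg5 and 2010107E04Rik were at 0.8 and 1.41. Among mobile carriers, the somatic cytochrome c gene Cycs was at 1.88 and its testis form Cyct was inactive. The electron transfer flavoprotein genes Etfa, Etfb and Etfdh were close to each other, at 0.93, 0.97 and 0.94.

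Ubiquinone synthesis genes were active in 14 of 14 entries, with a median of 0.555 RPKmM, from 0.05 for Adck3 to 2.41 for Coq2. Of enzymes that pass electrons to ubiquinone by other routes, Gpd2, the mitochondrial glycerol phosphate dehydrogenase, was at 2.04 and 2.05, and Prodh and Chdh were at 0.09 and 0.01. The phosphate carrier Slc25a3 was at 11.6 and the adenine nucleotide translocase Slc25a4, the form known from muscle and heart, at 13.0, while the general form Slc25a5 was at 0.38. The uncoupling protein genes Ucp2 and Ucp3 were at 0.23 and 0.01, and Ucp1 was inactive. Each value is of the pooled libraries and has no replicate check.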
